A study of Rattus norvegicus with 18 samples.

Results

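Cytl1, Ecrg4 and Pnlip encode secreted proteins that are seldom studied in glia. In rat spinal cord material they were among the genes that differed most between arrays given bone morphogenetic protein (BMP) and control arrays. They are 3 of 14217 named genes, each with 1 of the 31042 probe sets tested (1375001_at for Cytl1, 1372646_at for Ecrg4 and 1368554_at for Pnlip). They were chosen by their measured levels, for the difference between BMP and control arrays. Their differences between BMP and control, and between BMP and CNTF, are therefore descriptions and are given without a test.

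RNA was hybridised to 18 single-channel Affymetrix arrays in 3 groups of 6. The BMP group was given BMP at 10 ng/mL and the CNTF group ciliary neurotrophic factor at 10 ng/mL, both labelled as 4 days. The controls were labelled only as such, with no time, and when they were sampled is not known here. All 18 descriptions open with the entry "14 NT", which was not interpreted. The labels name no BMP family member, culture, cell type or number of animals. Titles number the arrays of each group 1 to 6, and arrays are called by group and number here. No label states that arrays of a group are independent cultures or animals, and the spread behind each p-value is that between arrays, which may be technical.

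BMPs are secreted ligands of the TGF-beta family that act through receptor kinases and SMAD transcription factors. In rodent neural precursors they are known to favour astrocytes over oligodendrocytes. CNTF acts through gp130 and STAT3 and is known for its effects on astrocytes. Cytl1, cytokine-like 1, is a small secreted protein known from human blood progenitors and from cartilage cells, where it has been tied to cartilage formation in mice. Ecrg4 encodes augurin, a secreted precursor that is cleaved into shorter peptides and is abundant in the rodent choroid plexus. Pnlip is the pancreatic triglyceride lipase, which acinar cells release into the gut, where it works with its cofactor colipase (Clps).

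The material carried transcripts of glial markers and of some neuron markers. A level counts as high here when the group's mean intensity reached the median of the whole table, 746.4. In the controls this held for 9 of 9 measured oligodendrocyte precursor markers, 11 of 15 oligodendrocyte markers, 15 of 17 astrocyte markers and 8 of 16 neuron markers. It held for 0 of 13 microglia and macrophage markers and for 4 of 14 endothelial and mural markers. Of 14217 named genes, 8925 were at or above the median level of the table over the 18 arrays, with Cytl1 not counted. The share in the controls alone was not counted. The neuron markers were below that share and the oligodendrocyte markers close to it, so these 2 counts do not set such markers apart from other genes. The median intensity of single arrays was 666.5 to 817.2, and the number of arrays limits the precision.

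The stretches of genome directly upstream of the 3 genes are shown because their transcript levels differed in opposite directions with BMP. They are 250 bases that end at the base before the annotated start, from RefSeq on build GRCr8, read 5′ to 3′ along the gene. They lie at chr14:77283646-77283895 on the minus strand (Cytl1), chr9:53484790-53485039 on the plus strand (Ecrg4) and chr1:267784360-267784609 on the plus strand (Pnlip). Capitals mark matches to 4 motifs that were searched on both strands and did not overlap one another here.
Cytl1: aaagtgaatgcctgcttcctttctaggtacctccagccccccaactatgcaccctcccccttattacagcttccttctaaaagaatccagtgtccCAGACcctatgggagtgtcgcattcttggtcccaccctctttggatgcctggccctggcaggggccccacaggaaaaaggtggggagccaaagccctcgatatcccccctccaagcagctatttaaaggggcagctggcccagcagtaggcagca
Ecrg4: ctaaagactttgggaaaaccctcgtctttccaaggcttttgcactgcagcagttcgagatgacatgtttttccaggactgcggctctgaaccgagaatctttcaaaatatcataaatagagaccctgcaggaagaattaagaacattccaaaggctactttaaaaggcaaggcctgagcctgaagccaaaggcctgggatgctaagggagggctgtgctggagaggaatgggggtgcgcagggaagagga
Pnlip: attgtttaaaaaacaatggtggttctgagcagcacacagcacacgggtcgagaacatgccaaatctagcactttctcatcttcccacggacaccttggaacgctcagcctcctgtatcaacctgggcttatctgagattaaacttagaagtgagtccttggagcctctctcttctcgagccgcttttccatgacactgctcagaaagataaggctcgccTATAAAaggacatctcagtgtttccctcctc

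The Cytl1 window held 1 match to CAGAC, the core of SMAD-binding elements, at positions -155 to -151 from the start. This motif occurs in 42.9% of 33469 RefSeq windows of that length. The Pnlip window held 1 TATAAA motif at -31 to -26, which 12.9% of the windows hold. TATAAA was added after the sequences had been read. No window held GGCGCC, a GC-rich SMAD motif found in 8.69% of all windows, or TTCNNNGAA, the core of STAT sites found in 7.67%. The Ecrg4 window held none of the 4. The GC content was 56.4% for Cytl1, 48.8% for Ecrg4 and 47.6% for Pnlip, against a median of 51.2% over all windows. A match is only a match of letters.

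Cytl1 was among the dimmest transcripts without BMP and well detected with it. Its intensity was 652.4 at the lowest, 1382 at the median and 8552 at the highest on the BMP arrays. On the CNTF arrays the corresponding values were 13.9, 64.4 and 190.9. On the control arrays they were 31.8, 114.1 and 223.3. Every BMP array was above every CNTF and control array, while the CNTF and control arrays overlapped. Among 14217 named genes, all BMP arrays lay above all controls for 1.98%, and all BMP arrays above all CNTF arrays for 1.77%. Since Cytl1 was chosen for this difference, nothing is read from those shares.

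Its rank was between the 47.8 and 90.7 percentile on BMP arrays, between 3.8 and 29.3 on CNTF arrays and between 10.0 and 31.9 on controls. Levels were analysed as log2(intensity + 116.655), where the constant is the 20th percentile of the table, and log2 differences are on that scale, which compresses differences of dim genes.

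On this scale Cytl1 averaged 11.12 ± 1.53 with BMP, 7.53 ± 0.49 with CNTF and 7.80 ± 0.58 in controls (SD, n = 6 each). The difference of BMP from control was 3.32 ± 0.51 (standard error from limma), or 9.98-fold, and ranked 6 from the top of all probe sets at this constant. With a constant of 1 in place of 116.655 it was 4.53, and with 389.003, the 40th percentile of the table, it was 2.37. The difference of BMP from CNTF was 3.59 ± 0.51. Between arrays of the same number, the BMP array exceeded the control by 5.75, 4.85, 3.50, 1.67, 2.25 and 1.89 for numbers 1 to 6. The gap was widest for numbers 1 and 2, where the BMP intensities were 7879 and 8552, against 652.4 to 1616 on the other 4 BMP arrays.

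Ecrg4 was bright with BMP and moderate elsewhere. Its intensity was 2712 at the lowest, 21050 at the median and 39264 at the highest on BMP arrays. On CNTF arrays the values were 360.3, 985.7 and 2096, and on controls 491.1, 1269 and 4075. All BMP arrays lay above all CNTF arrays, but BMP array 4, at 2712, was below control 3, at 4075. Ecrg4 averaged 13.78 ± 1.56 with BMP, 10.16 ± 0.84 with CNTF and 10.42 ± 1.10 in controls (log2, SD, n = 6 each).

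The Ecrg4 difference of BMP from control was 3.35 ± 0.62, or 10.2-fold, and ranked 5 from the top. The difference of BMP from CNTF, 3.61 ± 0.62, was the highest of all 31042 probe sets at this constant. With a constant of 1 it was 3.77, below the 5.27 of Cytl1. By number, BMP exceeded control by 4.34, 3.93, 2.93, 1.78, 3.32 and 3.82. The spread of Ecrg4 ran with the numbers in all 3 groups, whereas Cytl1 did so only in the BMP group of these 3. Arrays 1 to 3 had intensities of 31773 to 39264 with BMP, 1067 to 2096 with CNTF and 1829 to 4075 in controls. Arrays 4 to 6 had 2712 to 10327 with BMP, 360.3 to 904.8 with CNTF and 491.1 to 708.1 in controls. In each group the first 3 numbers lay above the last 3. This grouping of numbers was noticed in the values and was not tested, and the labels do not say what a number stands for. With the title number as a block in the fit, the standard error of the Ecrg4 differences was 0.28 in place of 0.62.

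Pnlip was lower with BMP. Its intensity was 2031 at the lowest, 2315 at the median and 6835 at the highest on BMP arrays. On CNTF arrays it was 9978, 11692 and 27250, and on controls 8436, 13524 and 32324. Every BMP array was below every CNTF and control array. Of the named genes, 1.48% had all BMP arrays below all controls and 1.78% had all BMP arrays below all CNTF arrays, and Pnlip was again chosen for such a difference. In the controls it ranked between the 90.2 and 98.5 percentile of its array, and on BMP arrays between 67.1 and 87.7.

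Pnlip averaged 11.56 ± 0.66 with BMP, 13.73 ± 0.52 with CNTF and 13.84 ± 0.72 in controls (log2, SD, n = 6 each). It differed by -2.28 ± 0.33 between BMP and control, a 4.85-fold lower level with BMP that ranked 13 from the bottom of all probe sets. The difference of BMP from CNTF was -2.17 ± 0.33. By number, the BMP array minus the control was -2.18, -2.85, -3.78, -2.18, -1.16 and -1.52. Number 3 had the widest gap and the brightest control. BMP array 6, at 6835, was the brightest of its group, and the array of number 6 was also the brightest with CNTF and the next after number 3 among controls.

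**Figure D1:**
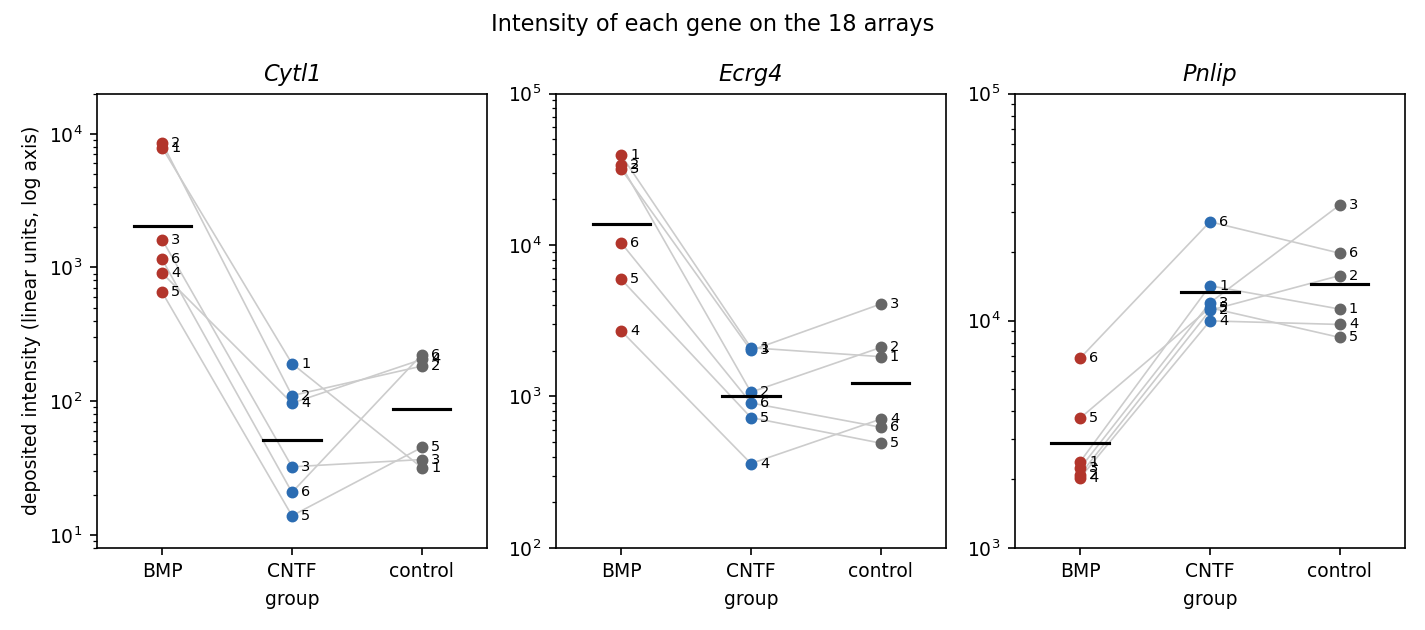
Deposited intensity (linear units, log axis) of Cytl1, Ecrg4 and Pnlip on each array, by group; points are arrays marked with their title number, grey lines join arrays of the same number and black bars are geometric means of 6 arrays. All 6 BMP arrays lie above the CNTF and control arrays for Cytl1 and below them for Pnlip, while for Ecrg4 BMP array 4 (2712) lies below control 3 (4075).

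CNTF was the comparison that had not chosen the genes, although it shares the controls with the one that had. None of the 3 genes was called against the controls by limma, with p-values adjusted over the 31042 probe sets by the Benjamini-Hochberg method. Over all named genes, 2.04% were called higher and 0.823% lower with CNTF. Cytl1 differed by -0.27 ± 0.51 (95% interval -1.34 to 0.80, adjusted p = 0.941), and was lower with CNTF in 5 of 6 numbers. Ecrg4 differed by -0.26 ± 0.62 (-1.55 to 1.03, adjusted p = 0.955) and was higher in 3 numbers and lower in 3.

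Pnlip differed by -0.11 ± 0.33 between CNTF and control (-0.80 to 0.58, adjusted p = 0.969) and was higher with CNTF in 4 of 6 numbers. A p that misses the threshold does not show equal levels. The intervals give the differences left possible by the fit without the title number as a block. With the block the standard errors were smaller, at 0.44 for Cytl1, 0.28 for Ecrg4 and 0.24 for Pnlip. Without control 3, the brightest control for both genes, the difference was 0.06 for Ecrg4 and 0.12 for Pnlip. The order of levels was thus BMP first for Cytl1 and Ecrg4, with CNTF and control not apart beyond their spread, and BMP last for Pnlip with the same neighbours.

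**Figure D2:**
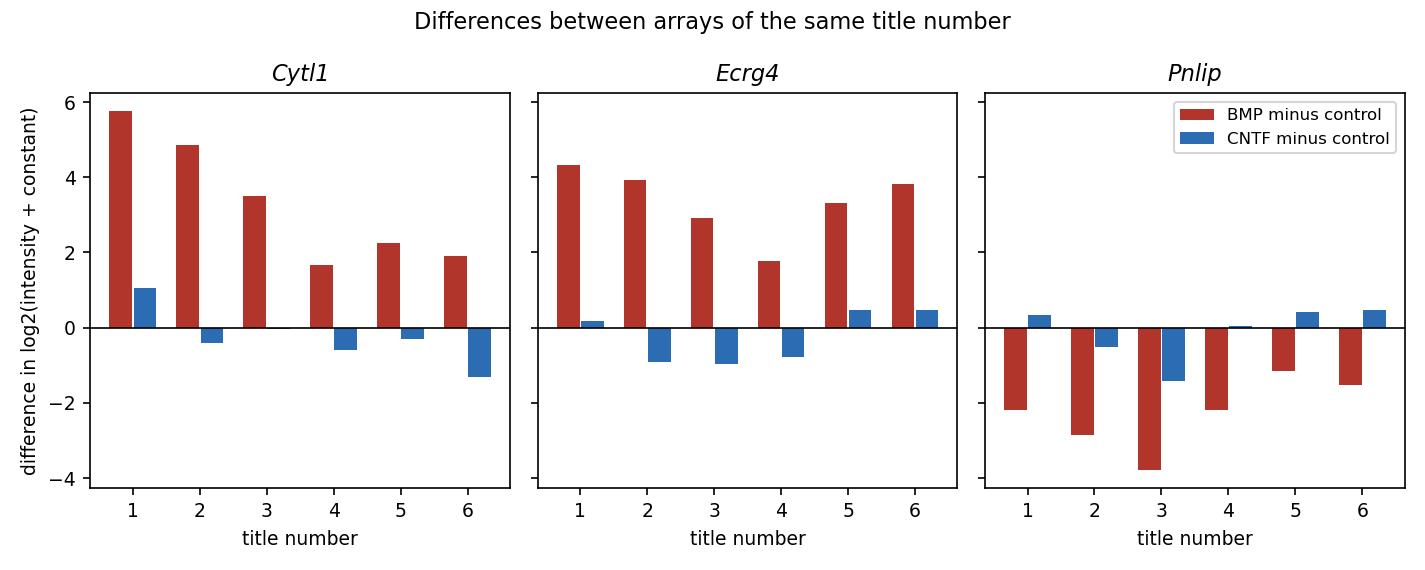
Differences in log2(intensity + 116.655) between arrays of the same title number, BMP minus control and CNTF minus control, for each gene; a bar is 1 pair of arrays. The BMP bars have 1 sign for all 6 numbers of a gene (1.67 to 5.75 for Cytl1, 1.78 to 4.34 for Ecrg4, -3.78 to -1.16 for Pnlip), and the CNTF bars run both ways.

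The genes moved with one another only in part. Over the 18 arrays Cytl1 and Ecrg4 levels correlated at r = 0.86, and Pnlip with Cytl1 at -0.83 and with Ecrg4 at -0.68, which the choice of the genes largely fixes. Deviations from the group means do not contain the group differences. On these, r was 0.50 for Cytl1 and Ecrg4, -0.28 for Cytl1 and Pnlip, and 0.16 for Ecrg4 and Pnlip. These are descriptions over 18 arrays that share groups and numbers.

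Several of the genes most like Pnlip over the 18 arrays are oligodendrocyte genes. Of 8924 other named genes at or above the median level of the table, the one most like it was Tcf7l2, a transcription factor of the Wnt pathway found in differentiating oligodendrocytes, at r = 0.98 over 18 arrays. Scrg1 followed at 0.94, then Zfp488, a zinc finger protein of the oligodendrocyte lineage (0.94), the kinase Prkcq (0.94) and Cnp, an enzyme of myelin (0.94). An r over levels contains the BMP difference for which Pnlip was chosen, so genes that fall with BMP come high. Likewise, genes that rise with BMP come high for Ecrg4 and Cytl1. Tcf7l2 also came first on deviations from the group means, at r = 0.93. Its other 4 probe sets gave 0.74 to 0.86. Inava (0.89), the ubiquitin ligase Rnf13 (0.88), the sterol enzyme Nsdhl (0.87) and Abtb2 (0.86) came next. A second probe set gave only 0.58 for Rnf13 and 0.73 for Nsdhl. Scrg1, Zfp488, Prkcq and Cnp were not among the first 5 on deviations.

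The level of Tcf7l2 averaged 13.36 with BMP, 14.39 with CNTF and 14.36 in controls. Between BMP and control Zfp488 differed by -2.60, Scrg1 by -2.03, Prkcq by -1.74 and Cnp by -1.35. With CNTF Tcf7l2 and these 4 genes differed from control by -0.34 to 0.02. They were picked for their likeness to Pnlip, so no test is given for them. A second Cnp probe set differed by -1.95 with BMP and correlated at 0.84 with Pnlip on deviations, above the 0.77 of the one used.

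Ecrg4 was most like Stx6, a syntaxin of vesicle traffic (r = 0.96 over 18 arrays), and Igfbp5, a secreted binding protein of insulin-like growth factors (0.95). Tfdp2, a partner of E2F factors, followed at 0.94, Rab3c, a small GTPase of secretory vesicles, at 0.93 and the lysosomal protein Laptm4a at 0.93. On deviations from the group means the first were Carhsp1 (0.96), the golgin Golga5 (0.92), Arhgef2 (0.91), Igfbp5 (0.91) and Stx6 (0.91). Igfbp5 and Stx6 were thus in both sets. The BMP-minus-control difference was 0.90 for Igfbp5 and 0.53 for Stx6, but -0.10 for Carhsp1, which differed by 0.77 with CNTF. The other 4 Igfbp5 probe sets correlated with Ecrg4 at 0.74 to 0.92 on deviations, and the second Stx6 probe set at 0.56.

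Cytl1 was most like Fstl1, a secreted follistatin-like protein (r = 0.93), followed by Gpx8 (0.92), the mannose 6-phosphate and Igf2 receptor Igf2r (0.91), the microfibril protein Fbn2 (0.91) and Mpped2 (0.90). On deviations from the group means the order was Igf2 (0.91), Fbn2 (0.86), the kinase Stk3 (0.84), Col2a1 (0.84) and Crym (0.81). Col2a1 encodes the main collagen of cartilage. Igf2 averaged 12.05 with BMP, 15.66 with CNTF and 9.30 in controls, so its group levels did not run like those of Cytl1. The likeness to Igf2 rests on 1 of its 4 probe sets. The others correlated at -0.05 to 0.24, but their group means were only 7.09 to 7.89, so their r says little. Col2a1 averaged 10.83 with BMP, 9.53 with CNTF and 9.44 in controls, and its other probe sets gave r of 0.68 and 0.46 on deviations.

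**Figure D3:**
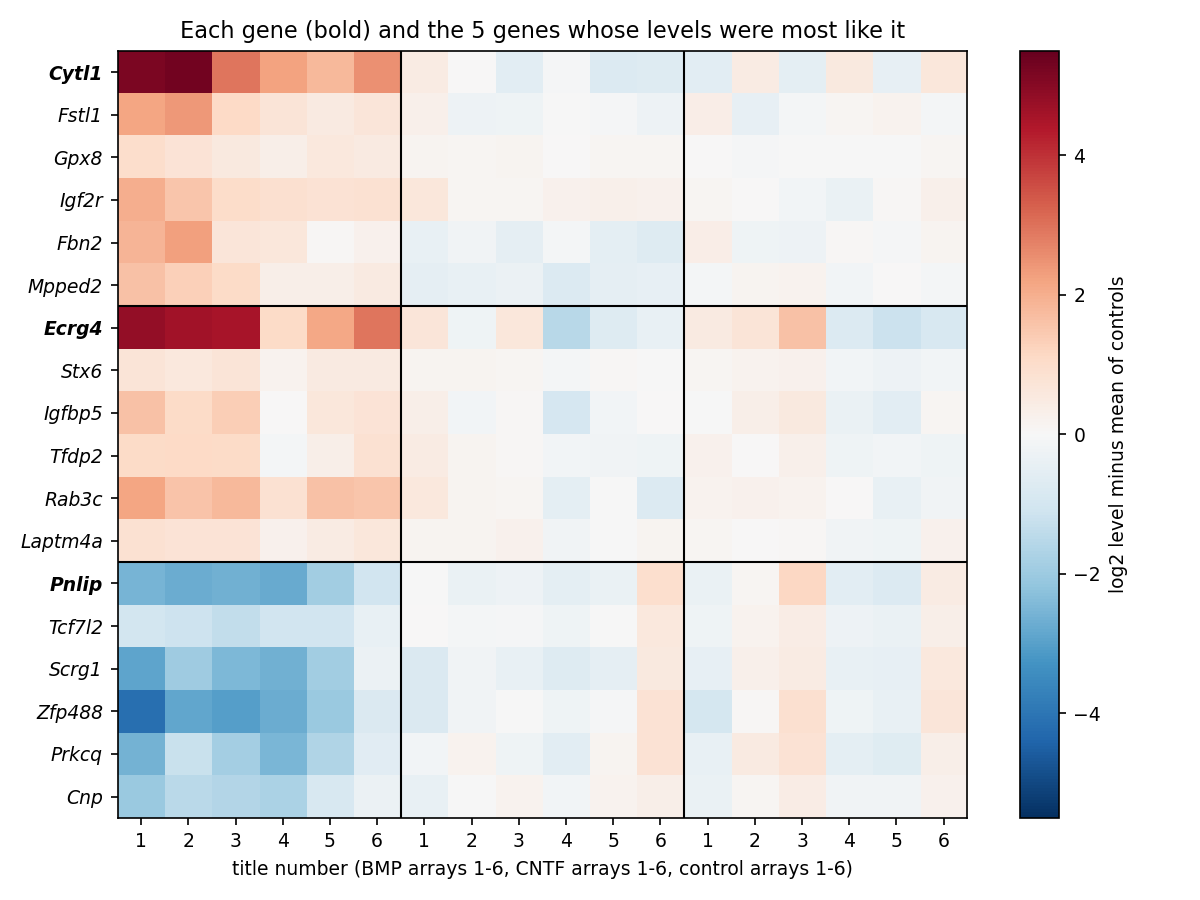
Level of each gene on each array (log2) minus its mean over the 6 controls, for Cytl1, Ecrg4 and Pnlip in bold and, under each, the 5 named genes with the highest Pearson r over the 18 arrays; columns are BMP, CNTF and control arrays by title number. Red is above and blue below the controls: the first 2 blocks are mostly red on BMP arrays, most deeply for Cytl1 on BMP arrays 1 and 2, and the Pnlip block is blue there, with the Pnlip row palest on BMP arrays 5 and 6.

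Pnlip was measured without its usual company. Of 21 measured genes that pancreatic acinar cells secrete or depend on, 0 reached the median of the table in any group. Their group means ran from 7.05 to 9.32 with BMP, 7.08 to 9.36 with CNTF and 7.10 to 9.48 in controls (log2), and Ctrl, a chymotrypsin-like protease, was the highest in each. The sum of their intensities was 1662 to 3004 on BMP arrays, 1691 to 2699 on CNTF arrays and 1658 to 2171 on controls. Clps averaged 7.88 ± 0.37 with BMP and 7.66 ± 0.65 in controls (SD, n = 6 each), a difference of 0.21 ± 0.32 (limma adjusted p = 0.802). No acinar gene was called by limma in either comparison with control, although at an unadjusted p under 0.05 each had 2 higher genes and 0 lower. The share of all named genes at that unadjusted threshold was not counted, so nothing is read from such counts, here or below.

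The share of all named genes called with BMP was 4.21% higher and 3.02% lower. Of 11 other lipases measured, 0 were called by limma against control with BMP (at an unadjusted p under 0.05, 2 were higher and 0 lower) and 0 with CNTF (0 at an unadjusted p under 0.05). Lpl, lipoprotein lipase, averaged 13.66 with BMP and 12.25 in controls (1.41 ± 0.42, adjusted p = 0.0502), and with the title number as a block its adjusted p was 0.00252. Pnliprp1 and Pnliprp2, the nearest relatives of Pnlip, follow it directly on chromosome 1 in GRCr8. Pnliprp1 differed by -0.23 ± 0.20 (adjusted p = 0.602) and Pnliprp2 by -0.08 ± 0.24 (adjusted p = 0.917) between BMP and control, both at levels under 7.8.

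Many oligodendrocyte lineage markers fell with BMP, the group in which Pnlip was low. Of the measured genes, 8 of 15 oligodendrocyte markers and 8 of 9 precursor markers were called lower and 0 were called higher, with medians of -1.44 and -1.40 against 0.01 for all named genes. The shares of all named genes called with BMP were 3.02% lower and 4.21% higher. With the title number as a block, 10 oligodendrocyte markers were lower and 1 was higher, and 9 precursor markers were lower. With CNTF 0 of either list was called by limma, and with the block 2 oligodendrocyte markers were higher and 2 precursor markers lower. At an unadjusted p under 0.05 with CNTF, 0 oligodendrocyte markers were higher or lower, and 1 precursor marker was higher and 2 were lower. Mag, a myelin adhesion protein, differed by -2.68 ± 0.67 with BMP (adjusted p = 0.0199), Myrf, the transcription factor of myelin genes, by -2.60 ± 0.55 (adjusted p = 0.00742) and Olig2 by -2.16 ± 0.44 (adjusted p = 0.00536). The intensities of the 15 oligodendrocyte markers summed to 28473 to 145728 on BMP arrays, 131001 to 365779 on CNTF arrays and 103779 to 312471 on controls. Within the BMP group the sum was highest on array 6 (145728) and lowest on array 1 (28473), while Pnlip was highest on array 6 and lowest on array 4. Within the CNTF group the sum was highest on array 3 (365779) and Pnlip on array 6. Among controls both were highest on array 3 (312471 for the sum) and next on array 6 (267925). The sum was lowest on control 1 and Pnlip on control 5. Fewer cells of a type and less RNA per cell cannot be told apart in such bulk samples, and the part of cell numbers in the Pnlip difference was not tested.

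Cytl1 is known from cartilage. Of 18 measured cartilage genes, 0 were called higher and 1 lower with BMP, beside 4.21% higher and 3.02% lower of all named genes, and their median was 0.01. The fallen gene was Sox6 (-0.89 ± 0.17, adjusted p = 0.0038), a transcription factor that oligodendrocyte precursors express as well. With the block 1 was called higher, Col2a1, which is also among the genes most like Cytl1, and 2 lower, Sox6 and Col9a1. With CNTF the parathyroid hormone receptor Pth1r rose (1.26, adjusted p = 0.00593), beside 2.04% of all named genes called higher. The summed intensity of the list was 10802 to 43335 on BMP arrays, 16842 to 29983 on CNTF arrays and 15411 to 24078 on controls. The sum was 43335 on BMP array 1, against 21578 on control 1. On BMP array 2, where Cytl1 was brightest, it was 20532, against 23215 on control 2. In controls Sox6 (13.06, log2) and Col9a3 (12.01) weighed most in this sum, and both averaged lower with BMP, at 12.17 and 11.39. Col2a1 reached 14.08 on BMP array 1, above both of these BMP means, so the weights differ on that array. Col2a1 was 4.64 and 2.33 above its control mean (log2) on BMP arrays 1 and 2. On the other BMP arrays it was between -0.47 and 1.10 from that mean.

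Of 19 meningeal and fibroblast genes, 2 rose and 0 fell with BMP, the collagen chain Col1a2 (2.61 ± 0.50, adjusted p = 0.00349) and the matrix proteoglycan Fmod (2.02 ± 0.57, adjusted p = 0.0413). The shares over all named genes were 4.21% higher and 3.02% lower. With the block 6 rose, beside 2824 higher of all 31042 probe sets. The list summed to 74223 to 110657 on BMP arrays, 66555 to 82933 on CNTF arrays and 53945 to 94567 on controls, and its highest sums were 110657 on BMP array 2 and 102691 on BMP array 1. For numbers 4, 5 and 6 the sums were 74223, 87298 and 76427 with BMP, below the 84415, 94567 and 77268 of the controls. Igfbp2, by far the brightest gene of the list, weighs most in these sums and differed by -0.10 ± 0.16 between BMP and control. The sums therefore do not show whether the dimmer genes were lower on those arrays. Col1a1, Col1a2, Col3a1 and Mgp were each higher with BMP than in the control of the same number in 6 of 6 numbers. Ptgds and Igfbp2 were higher in 2 numbers and Foxc2 in 1. The 14 endothelial and mural genes summed to 7308 to 48751 on BMP arrays, 5181 to 17875 on CNTF arrays and 5021 to 10990 on controls, again highest on BMP array 2. The part of these cells in the Cytl1 and Ecrg4 differences was not tested.

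Ecrg4 is known from the choroid plexus, whose main marker Ttr was dim in every group. Ttr, the transport protein that this epithelium makes in bulk, averaged 8.58 with BMP and 8.74 in controls (-0.16 ± 0.18, adjusted p = 0.719). Of 19 measured choroid plexus and ependyma genes, 3 rose and 0 fell with BMP, beside 4.21% higher and 3.02% lower of all named genes. They were the BMP antagonist Sostdc1 (1.02 ± 0.23, adjusted p = 0.0114) and the cilia genes Rsph1 (1.19 ± 0.32, adjusted p = 0.0304) and Foxj1 (1.09 ± 0.32, adjusted p = 0.0471). With the block 6 rose, beside 2824 higher of all 31042 probe sets. With CNTF, Rsph1 rose (1.88, adjusted p = 0.00209), and 4 genes of the list with the block, beside 1300 of 31042. Without the block, 2.04% of all named genes were called higher with CNTF. The list summed to 8703 to 16909 on BMP arrays, 12178 to 17298 on CNTF arrays and 9334 to 14947 on controls.

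Augurin is cut by proprotein convertases, and binding partners have been proposed for its peptides. Of 11 measured genes of this list, 2 rose and 0 fell with BMP, beside 4.21% higher and 3.02% lower of all named genes. The convertase Pcsk5 averaged 9.13 with BMP and 8.19 in controls (0.94 ± 0.22, adjusted p = 0.0132), and Ly96, a co-receptor of Tlr4, averaged 8.96 with BMP and 8.44 in controls (0.52 ± 0.13, adjusted p = 0.0212). Furin, a convertase of most cells, differed by -0.04 ± 0.13 (adjusted p = 0.926). With CNTF, Cd14, another part of the Tlr4 complex, rose (1.48, adjusted p = 0.00552), beside 2.04% of all named genes called higher.

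Targets of both factors were set beside the 3 genes. Of 19 BMP-SMAD targets, 3 rose with BMP and 0 fell, the pseudoreceptor Bambi (9.62 with BMP and 8.12 in controls, adjusted p = 0.0139), the BMP-binding Bmper (1.20 ± 0.34, adjusted p = 0.0404) and the transcription factor Atoh8 (0.84 ± 0.22, adjusted p = 0.0295). The shares over all named genes were 4.21% higher and 3.02% lower. With the block 5 BMP-SMAD targets rose and 1 fell. Id1 and Id3, direct BMP targets, differed by -0.50 ± 0.30 and -0.21 ± 0.26 between BMP and control (adjusted p = 0.406 and 0.755). With CNTF, 12 of 19 gp130-STAT3 targets rose and 0 fell, among them Socs3 (3.17 ± 0.18, adjusted p = 3.15e-09), on the same arrays where Cytl1, Ecrg4 and Pnlip were not called. The shares of all named genes called with CNTF were 2.04% higher and 0.823% lower. With BMP, 2 of the gp130-STAT3 targets rose and 2 fell, and with the block 7 rose and 2 fell.

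**Figure D4:**
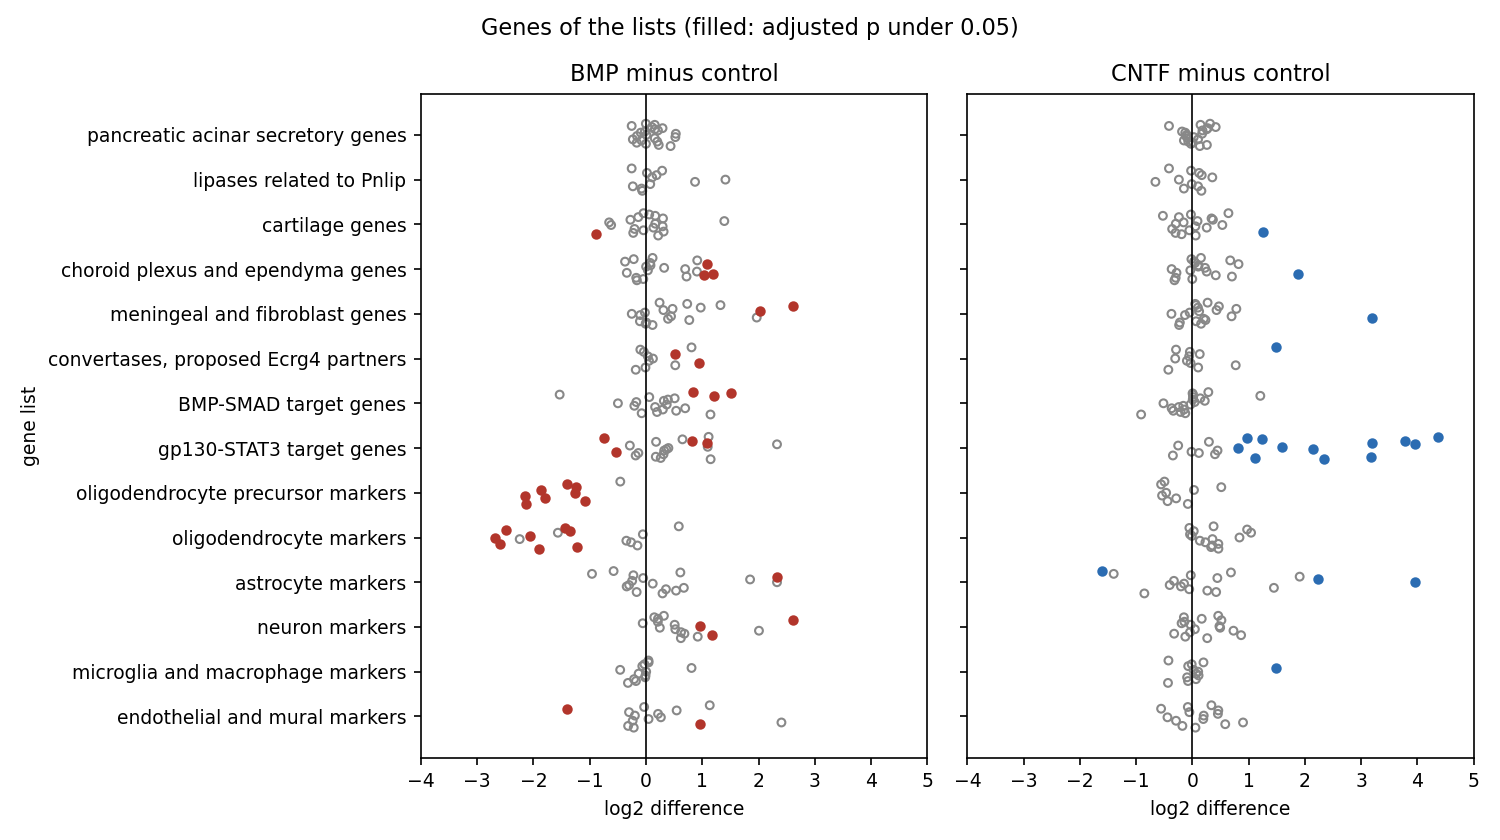
Log2 differences of the measured genes of 14 lists, BMP minus control on the left and CNTF minus control on the right; a point is 1 gene, filled where limma's adjusted p was under 0.05. With BMP the filled points of the oligodendrocyte and precursor lists lie between -2.68 and -1.09, and none of the 21 acinar genes is filled in either panel.

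Of the genes that flank Cytl1, Ecrg4 and Pnlip on the chromosome, 1 was called with BMP. They were chosen for their place after the values could be seen. Of the 3 protein-coding genes on each side of each gene in GRCr8, 13 of 18 were measured. Their median BMP-minus-control difference was 0.02. The one called was Gfra1, a receptor for GDNF that lies near Pnlip (0.61, adjusted p = 0.0339), which is 1 of 13 beside the 4.21% called higher overall. Msx1, a homeobox gene next to Cytl1, averaged 9.14 with BMP and 8.44 in controls (0.70, adjusted p = 0.364).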

How the data were processed

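Single-channel intensities of 18 rat Affymetrix arrays were used as deposited by the authors, on a linear scale. The 2% trimmed means of all arrays lay between 2500.7 and 2500.8, so the arrays had been scaled to a common level before deposit. The sources used here do not give the summary method or the culture conditions. Of 31099 probe sets, 57 controls were left out and 31042 tested. The platform table gave 20826 probe sets 1 gene symbol, 436 several and 9780 none, and each of 14217 genes is represented by its brightest probe set. Groups came from the sample descriptions and numbers from the titles.

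Levels were log2(intensity + 116.655), the 20th percentile of the table, and were compared with limma 3.58.1 in R 4.3.3 over all 3 groups, without a block and p-values were adjusted over all 31042 by Benjamini-Hochberg (threshold 0.05). The fit was tested on simulated data. Figures were drawn with matplotlib 3.10.9 in Python 3.11.15. Same-numbered arrays deviated together from their group means in 18 of 18 pairs (r = 0.121 to 0.491). Between arrays of different groups and numbers the highest r was 0.357. For 18 of 18 arrays, the most similar array of another group had the same number. Differences are therefore also given by number, and the block is an alternative. The main fit does not pair the arrays, and the labels state no pairing. The 3 genes, the gene lists and the tests were chosen with earlier results of these data known. Genes named beside them were the 5 most correlated on levels and the 5 on deviations from the group means, among genes at or above the median level of the table. Up to 3 called genes with the largest difference per list and comparison were named, and always Id1, Id3, Socs3, Gfap, Pdgfra, Mbp and Clps. Further list genes, other probe sets and chromosomal neighbours were named after their values were seen. Alternatives were constants of 1 and 389.003, the block, and each array left out in turn, with the others listed in the closing section. Protein sequences were not used here.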

Additional observations from a re-analysis of the deposited data

Results flagged for a closer look

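Within a group of 6 arrays, 12 of 114 groups from 38 genes had 1 array farther from the others than Dixon's 95% criterion allows. Chance flags about 1 in 20 groups. All values are log2 levels. Among the 3 secreted genes it was Pnlip on CNTF array 6, at 14.74 against 13.30 to 13.81 on the others. Tcf7l2, the gene most like Pnlip, had its high array at number 6, at 13.96 with BMP (others 13.03 to 13.34) and 14.94 with CNTF (others 14.12 to 14.37). Abtb2 was at 11.08 on BMP array 6 (others 9.32 to 9.81). Both genes were picked for running with Pnlip within the groups, so a shared high array follows in part from that choice.

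Mbp, a myelin protein, was low on array 1 of every group, at 9.33 with BMP (others 13.59 to 14.95), 14.65 with CNTF (others 16.23 to 16.51) and 13.68 in controls (others 15.90 to 16.30). Gfap, the astrocyte filament, was low on CNTF array 1, at 15.78 (others 16.32 to 16.53). Igf2r was high there, at 13.07 (others 12.54 to 12.70). Pnliprp1 was at 7.79 on BMP array 1 (others 7.04 to 7.29). On CNTF array 4, Arhgef2 was at 12.61 (others 12.89 to 13.05) and Mpped2 at 10.76 (others 11.02 to 11.18).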

How the results depend on the processing

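Of 57 alternative values each, 56 of the BMP-minus-control, 55 of the BMP-minus-CNTF and 55 of the CNTF-minus-control differences of the 3 genes kept their direction and either moved by less than the SD between arrays or, with CNTF, stayed uncalled. The alternatives were 2 other log2 constants, quantile normalization, a filter on dim probe sets, robust moderation, fits of only the 2 groups compared, the title number as a replicate block, and each array left out in turn. In this balanced design the filter, robust moderation, the fits of 2 groups and the block cannot change a difference of group means. Those settings were bound to keep each difference, and only the CNTF calls could change with them. Cytl1 moved with the constant, since it is dim without BMP: with a constant of 1 its difference was 4.53 from control and 5.27 from CNTF, and with the 40th percentile of the table (389.003) it was 2.37 from control and 2.49 from CNTF. Its CNTF-minus-control difference was -0.74 with a constant of 1 (adjusted p = 0.841). With the replicate block the counts of called probe sets were 5176 for BMP against control (1865 without), 2349 for CNTF against control (721 without) and 4686 for BMP against CNTF (1934 without). The block called none of the 3 genes with CNTF (adjusted p = 0.814 for Cytl1, 0.696 for Ecrg4 and 0.873 for Pnlip). Leaving out 1 array gave BMP-minus-control differences of 2.93 to 3.63 for Cytl1, 3.05 to 3.81 for Ecrg4 and -2.52 to -2.05 for Pnlip. The CNTF-minus-control differences were then -0.41 to -0.14 for Cytl1, -0.50 to 0.06 for Ecrg4 and -0.31 to 0.12 for Pnlip. Without control 3 the sign changed for Ecrg4 (0.061, adjusted p = 0.99) and Pnlip (0.12, adjusted p = 0.951), and the cause was not tested. Counts of calls ranged from 1282 to 2097 for BMP against control, 483 to 795 for CNTF against control and 1379 to 1985 for BMP against CNTF. Low signal limits the differences of Cytl1 outside the BMP group.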

Other observations

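Some neuron, astrocyte and vascular markers were called with BMP or CNTF, and their part in the differences of Cytl1, Ecrg4 and Pnlip was not tested. Of all named genes, 4.21% were called higher and 3.02% lower with BMP, and 2.04% higher and 0.823% lower with CNTF. Of 16 neuron markers, 3 rose and 0 fell with BMP. Gad1, the enzyme that makes GABA, averaged 10.73 with BMP and 8.12 in controls (2.61 ± 0.43, limma adjusted p = 0.0014). Stmn2, a tubulin-binding protein of growing axons, averaged 13.60 with BMP and 12.43 in controls (adjusted p = 0.048), and Nefl, the light neurofilament, 10.08 with BMP and 9.12 in controls (adjusted p = 0.00125). With the title number as a replicate block 8 rose. With CNTF 0 of 16 were called by limma (at an unadjusted p under 0.05, 4 were higher and 1 lower), and with the block 3 rose and 1 fell. No share of all named genes was counted at the unadjusted threshold, so nothing is read from those counts.

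Of 17 astrocyte markers, 1 rose and 0 fell with BMP. It was the water channel Aqp4, at 14.64 with BMP and 12.31 in controls (2.33 ± 0.62, adjusted p = 0.0295). With CNTF 2 rose and 1 fell, Gfap (3.96 ± 0.78, adjusted p = 0.00708), the secreted chaperone Clu (2.24 ± 0.58, adjusted p = 0.0488) and, lower, the acyl-CoA synthetase Acsbg1 (-1.60 ± 0.38, adjusted p = 0.0279). Gfap differed by 2.33 ± 0.78 between BMP and control (adjusted p = 0.0867, and 0.0169 with the block). With the block 4 astrocyte markers rose and 1 fell with BMP, and 6 rose and 3 fell with CNTF.

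Of 14 endothelial and mural markers, Tek, an endothelial receptor kinase, rose with BMP (0.95 ± 0.26, adjusted p = 0.036), and Cspg4, which oligodendrocyte precursors carry too, fell (-1.40 ± 0.25, adjusted p = 0.00249). With the block 3 rose and 1 fell. Pdgfra, the receptor of oligodendrocyte precursors, fell with BMP (-1.80 ± 0.31, adjusted p = 0.00162), and Mbp differed by -2.25 ± 0.71 (adjusted p = 0.0679, and 0.000533 with the block). The other 2 Mbp probe sets fell without the block too, by 1.95 (adjusted p = 0.00825) and 2.64 (adjusted p = 0.0316). Mgp, a matrix protein of the fibroblast list, rose with CNTF (3.19 ± 0.66, adjusted p = 0.0106) and differed by 1.97 ± 0.66 with BMP (adjusted p = 0.0877, and 0.00984 with the block). Of 13 microglia and macrophage markers, Cd14 alone was called with CNTF, and 0 were called by limma with BMP (at an unadjusted p under 0.05, 1 was higher and 0 lower).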
